A study of Mus musculus with 30 samples.

Results

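The BMP ligand genes *Bmp2*, *Bmp4*, *Bmp5* and *Bmp7*, the genes *Grem1*, *Nog* and *Sostdc1* for secreted BMP antagonists, and *Bambi*, which encodes a pseudoreceptor, were followed in mouse forelimb buds after the secretion of WNT proteins was blocked. They were taken by symbol from the deposited expression table and joined by Ensembl identifier to the count table. All 8 genes were found among the 50833 genes of the count table, and all 8 passed the filter on low counts at every time point. Pregnant wild-type Swiss Albino females were injected at embryonic stage E10.5 with C59 or with DMSO, the solvent of its stock, and forelimb buds were collected 1, 6, 12, 18 and 24 h later. The methods describe methylcellulose and a detergent in the C59 injections but not in those of DMSO. C59 (Wnt-C59) is a small molecule that inhibits porcupine, the enzyme that lipidates WNT proteins so that they can be secreted, so WNT signaling is lowered both through and independently of β-catenin. The 10 groups (DMSO and C59 at each time) held 3 RNA-sequencing libraries each, 30 in all, and each library came from 1 pair of forelimb buds. Per the methods, the replicates of a group came from at least 3 litters, and p-values measure the spread between these libraries. The whole embryo and the dam were exposed to the drug, and a limb bud library mixes mesenchyme, ectoderm, vessels, blood and muscle precursors.

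BMP ligands are secreted dimers that bring type I and type II serine/threonine kinase receptors together, whereupon SMAD1, SMAD5 and SMAD9 are phosphorylated, join SMAD4 and act on target genes such as the *Id* and *Msx* genes. BMP2 and BMP4 form one close subgroup of ligands and BMP5 and BMP7 another. Gremlin 1 (GREM1) and noggin (NOG) bind ligands outside the cell and keep them from their receptors. In the limb bud, GREM1 made in the distal mesenchyme lowers BMP activity below the apical ectodermal ridge, which keeps the ridge making FGFs and the posterior mesenchyme making SHH, while noggin is made by condensing cartilage.

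By the GENCODE M21 annotation of GRCm38, *Grem1* (ENSMUSG00000074934) lies at chr2:113746164-113758646 on the minus strand, and 2 of the ligand genes share that chromosome, *Bmp2* (ENSMUSG00000027358) at chr2:133552159-133562885 on the plus strand and *Bmp7* (ENSMUSG00000008999) at chr2:172868012-172940321 on the minus strand. *Bmp4* (ENSMUSG00000021835) lies at chr14:46383520-46390669 on the minus strand and *Bmp5* (ENSMUSG00000032179) at chr9:75775364-75900310 on the plus strand. *Nog* (ENSMUSG00000048616) lies at chr11:89300638-89302332 on the minus strand and *Sostdc1* (ENSMUSG00000036169) at chr12:36314139-36318452 on the plus strand, and *Bambi* has the identifier ENSMUSG00000024232. Values are per gene.

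Promoter sequence was at hand for 3 of the 8 genes (RefSeq, GRCm38.p6) and is given for the 250 bases before the start, 5′ to 3′ on the strand of the gene, because *Grem1* and *Bmp4* fell together after C59 while *Bmp5* did not pass the test. The *Grem1* stretch lies at chr2:113758649-113758898 (minus strand), that of *Bmp4* at chr14:46390670-46390919 (minus strand) and that of *Bmp5* at chr9:75775115-75775364 (plus strand). Capitals mark matches, on either strand, to CTTTG (the core of the TCF/LEF motif; CAAAG on the other strand) or to GGCGCC (a GC-rich SMAD motif, the same on both strands), and these do not overlap here.
Grem1: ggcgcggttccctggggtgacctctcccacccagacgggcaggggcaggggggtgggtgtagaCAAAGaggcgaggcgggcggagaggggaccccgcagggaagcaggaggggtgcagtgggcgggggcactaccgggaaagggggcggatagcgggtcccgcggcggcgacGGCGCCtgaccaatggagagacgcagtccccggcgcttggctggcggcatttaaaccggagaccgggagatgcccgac
Bmp4: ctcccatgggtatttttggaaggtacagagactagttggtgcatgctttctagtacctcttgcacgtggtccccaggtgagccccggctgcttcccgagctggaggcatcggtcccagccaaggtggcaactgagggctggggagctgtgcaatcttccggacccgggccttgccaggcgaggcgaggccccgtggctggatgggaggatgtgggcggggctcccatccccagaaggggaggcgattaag
Bmp5: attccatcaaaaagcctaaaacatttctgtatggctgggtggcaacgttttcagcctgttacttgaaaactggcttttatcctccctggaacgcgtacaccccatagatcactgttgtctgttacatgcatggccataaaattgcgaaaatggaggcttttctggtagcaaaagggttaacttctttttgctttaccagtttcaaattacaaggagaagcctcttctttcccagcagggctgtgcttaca
The *Grem1* stretch held 1 match to CTTTG, from 187 to 183 bases before the start, and 1 match to GGCGCC, from 78 to 73 bases before it. Neither the *Bmp4* nor the *Bmp5* stretch held a match to either motif, and the longer TCF/LEF motif CTTTGAT was, on either strand, found in none of these 3 windows. Over 32851 promoter windows of the same length, 48.6% held CTTTG, 9.59% held GGCGCC and 3.21% held CTTTGAT. G and C made up 72.0% of the *Grem1* stretch, 63.2% of that of *Bmp4* and 42.8% of that of *Bmp5*, against a median of 52.4% over all windows.

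The libraries held between 18188636 and 38974885 counts. In each of 30 pairs of replicates the counts differed beyond sampling noise, and 5 libraries stood apart from the others of their group: DMSO 1 h replicate 1, DMSO 6 h replicate 1, DMSO 18 h replicate 1, C59 18 h replicate 3 and C59 24 h replicate 2. Pairs with one of these had a chi-square per degree of freedom of 20.8 to 42.2, and the other pairs 3.31 to 11.7. *Axin2*, a feedback target of WNT signaling that checks the drug, was lower in C59 at 1 h (-0.19 ± 0.04 (SE) on the log2 scale; edgeR, adjusted p 0.0282), at 6 h (28.2 against 110 CPM, log2 fold change -1.97 ± 0.06 (SE); edgeR, adjusted p 7.55e-11) and at 12 h (-1.45 ± 0.06; edgeR, adjusted p 1.4e-07), and did not pass at 18 and 24 h. Summed over 4 Y-linked genes, FPKM was 0 in the 3 DMSO libraries at 6 h and from 19.8 to 33.2 in the 3 C59 libraries, so at 6 h the treatment and the sex of the embryos cannot be told apart. At 12 h each treatment had 1 library above 1 FPKM and 2 below it, and at 18 h there were 1 and 2 libraries above it in DMSO and C59. At 1 and 24 h 2 of 3 DMSO libraries and all 3 C59 libraries were above 1 FPKM. The DMSO library below it at 24 h was replicate 2, without which the 24 h calls of *Nog* and *Bmp7* were lost. Limb mesenchyme markers (*Prrx1*, *Tbx5* and 5 others) were detected in every library, and the hindlimb markers *Tbx4* and *Pitx1* reached at most 22.1 and 4.63 CPM, against 188 to 330 CPM for the forelimb marker *Tbx5*.

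In DMSO limb buds the 8 genes took separate courses over 24 h of normal outgrowth. Levels between genes are given in FPKM, fragment counts scaled by transcript length and library depth, and all other levels in CPM, counts scaled to 1000000 counts of the normalized library. *Bmp4* and *Bmp7* were the most abundant of the 8 transcripts at 1 h, at 27.8 ± 1.99 and 19.7 ± 1.63 FPKM (SD, n = 3), followed by *Grem1* at 13.7 ± 1.27 and *Bambi* at 6.55 ± 0.618 FPKM. *Sostdc1*, *Bmp5*, *Bmp2* and *Nog* stood between 1.65 and 0.399 FPKM. From there the low genes climbed. At 24 h *Sostdc1* had reached 11 ± 0.725, *Bmp2* 8.09 ± 0.307, *Nog* 6.72 ± 0.622 and *Bmp5* 5.99 ± 0.810 FPKM (SD, n = 3), while *Grem1* had come down to 8.26 ± 0.634 FPKM.

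Tested as DMSO 24 h against DMSO 1 h with the 15 DMSO libraries in 1 fit (edgeR quasi-likelihood test, Benjamini-Hochberg adjustment over 13716 genes), 4 members rose and 2 fell, where 28.9% of all genes tested rose and 27.6% fell. *Nog* rose by 4.0 ± 0.24 on the log2 scale (SE; edgeR, adjusted p 5.42e-10), from 0.938, 1.62 and 0.854 CPM at 1 h to 17.8, 15.7 and 20.0 CPM at 24 h. *Sostdc1* rose by 2.68 ± 0.14, *Bmp2* by 2.53 ± 0.10 and *Bmp5* by 1.89 ± 0.14 on that scale. *Grem1* fell by 0.78 ± 0.08 on the log2 scale (edgeR, adjusted p 1.69e-07) and *Bmp4* by 0.29 ± 0.07 (edgeR, adjusted p 0.00232). *Bmp7* (0.08 ± 0.05) and *Bambi* (-0.10 ± 0.07) did not pass. The DMSO means of *Nog*, *Sostdc1*, *Bmp2* and *Bmp5* were each higher at every collection than at the one before, though the 6 and 12 h libraries of *Nog* overlapped.

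**Figure D1:**
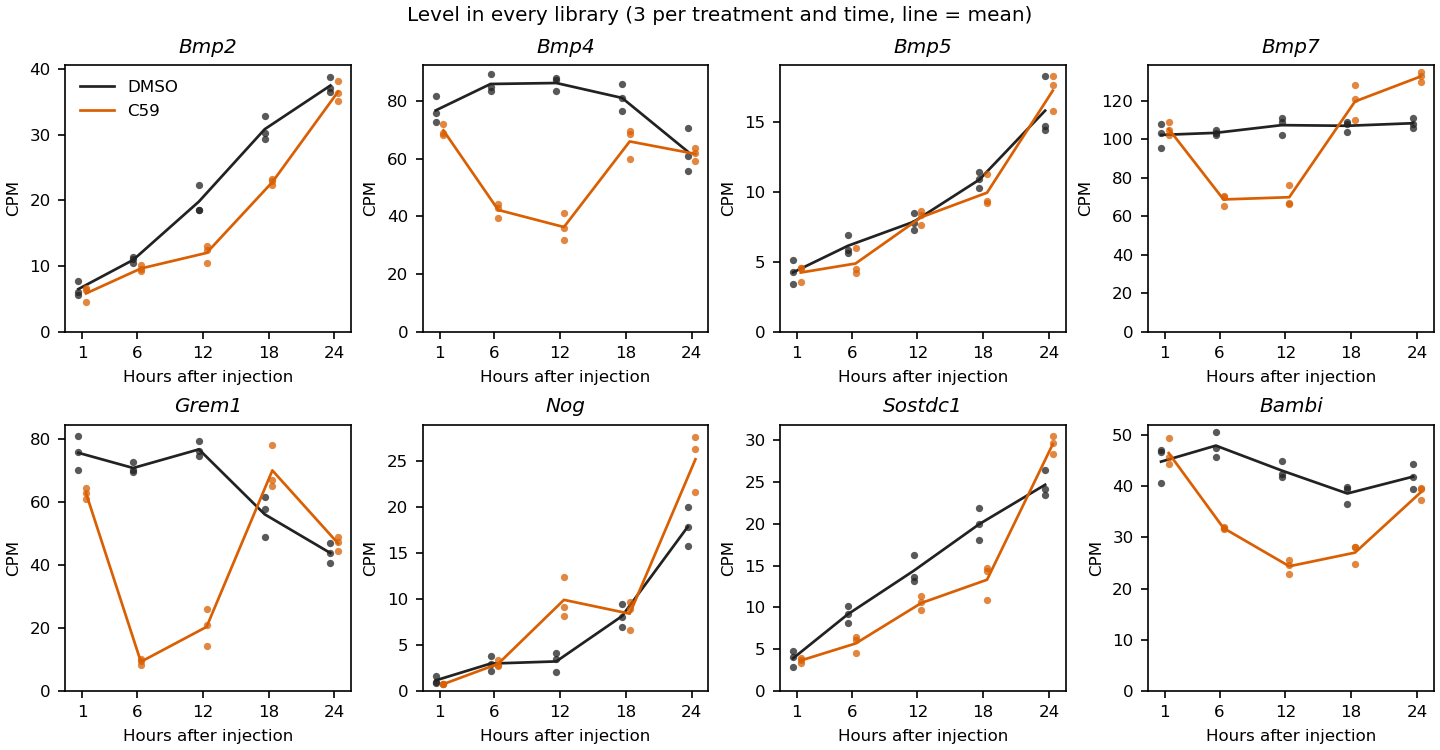
Level of each gene in CPM (vertical axes, from 0) against hours after injection in every library, with DMSO in black, C59 in orange, 1 point per library and lines through the means of 3. After C59, *Grem1*, *Bmp4*, *Bmp7* and *Bambi* drop at 6 and 12 h, the climb of *Bmp2* and *Sostdc1* is lower until 18 h, *Nog* is up at 12 h (9.89 against 3.20 CPM), and *Bmp5* follows DMSO.

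*Bmp4*, the BMP2/4-type ligand that the early limb bud makes most of, was lower after C59 at 6 and 12 h. At 6 h it stood at 89.5, 83.3 and 84.9 CPM in DMSO and at 39.5, 44.2 and 42.9 CPM in C59, and at 12 h at 87.4, 87.8 and 83.5 CPM against 41.3, 35.9 and 31.6 CPM. The C59 libraries all lay under the DMSO libraries at both times, at 49.1% and 42.1% of the DMSO mean. The log2 fold change was -1.03 ± 0.06 at 6 h (SE; edgeR, adjusted p 7.8e-08) and -1.25 ± 0.08 at 12 h (edgeR, adjusted p 1.72e-06). In a bulk library, fewer cells that make a transcript and less of it per cell cannot be told apart, and this holds for every level given here. At 18 h the libraries still did not overlap (85.9, 80.9 and 76.4 against 59.8, 68.4 and 69.7 CPM), but the difference of -0.28 ± 0.10 missed the threshold (edgeR, adjusted p 0.127). Without C59 18 h replicate 3 it passed (-0.33; edgeR, adjusted p 0.0298), and also with all 30 libraries in 1 fit (-0.30; edgeR, adjusted p 0.00772), and adjusted p reached 0.312 in edgeR without DMSO 18 h replicate 1. By 24 h the groups overlapped (-0.01 ± 0.09; edgeR, adjusted p 0.947). *Gm15222*, an antisense gene that overlaps *Bmp4*, held 35 to 179 counts a library against 688 to 3024 for *Bmp4*, and the strand used in counting is not given in the sources used here, so a small part of either count may belong to the other.

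*Bmp7*, which encodes a ligand of the other subgroup and is made in both mesenchyme and ridge, was lower at the same 2 times and higher at the end. Its 6 h values were 105, 102 and 103 CPM in DMSO and 65.5, 70.5 and 70.1 CPM in C59, a log2 fold change of -0.60 ± 0.05 (SE; edgeR, adjusted p 3.13e-06). At 12 h, 109, 102 and 111 CPM in DMSO faced 66.5, 67.0 and 76.1 CPM in C59 (-0.62 ± 0.06; edgeR, adjusted p 2.5e-05). No C59 library reached the DMSO range at either time. At 18 h the order was the other way, 104, 108 and 109 CPM in DMSO and 121, 110 and 128 CPM in C59, without overlap but short of the threshold (0.18 ± 0.09; edgeR, adjusted p 0.27). At 24 h it passed, with 111, 106 and 108 CPM in DMSO and 133, 135 and 130 CPM in C59 (0.30 ± 0.05; edgeR, adjusted p 0.00725), 123% of the DMSO mean. That call was lost without DMSO 24 h replicate 2 (adjusted p 0.0537 in edgeR) and without replicate 3 (0.0514 in edgeR), with differences of 0.29 and 0.30.

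*Bmp2*, the ligand that marks the interdigit mesenchyme later on, differed later than *Bmp4*. At 6 h its values were 11.1, 11.3 and 10.4 CPM in DMSO and 10.1, 9.22 and 9.55 CPM in C59, separate but not past the threshold (-0.19 ± 0.11; edgeR, adjusted p 0.238). At 12 h they were 18.5, 22.4 and 18.6 against 10.46, 12.4 and 13.1 CPM, and *Bmp2* was lower (-0.72 ± 0.11; edgeR, adjusted p 0.000468). The 12 h C59 mean of 12.0 CPM was near the 6 h DMSO mean of 10.9 CPM, and those libraries overlapped. At 18 h, 30.3, 29.4 and 32.9 CPM in DMSO stood over 22.9, 22.3 and 23.2 CPM in C59 (-0.42 ± 0.10; edgeR, adjusted p 0.0364). At 24 h the groups overlapped near 37 CPM, with means of 37.5 and 36.6 CPM.

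*Bmp5*, the ligand nearest to *Bmp7*, passed the test at none of the 5 times. Its C59 level was 79.4% of DMSO at 6 h, the lowest of the 5, with 5.86, 6.93 and 5.61 CPM in DMSO and 4.19, 4.46 and 5.95 CPM in C59 (-0.34 ± 0.17; edgeR, adjusted p 0.182). The groups overlapped at every time. With counts from 67 to 455 a library, the SE of its log2 fold change was 0.11 to 0.18, so a small difference would not have been detectable at this depth.

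*Grem1* had the largest log2 fold changes of the 8 genes at 6 and 12 h. It was the only member that passed at 1 h: 81.1, 75.9 and 70.2 CPM in DMSO and 61.01, 64.4 and 63.1 CPM in C59, 83.0% of the DMSO mean and without overlap (-0.27 ± 0.06; edgeR, adjusted p 0.0249). It did not hold in 5 of the 6 fits that left out 1 library, all but the one without DMSO 1 h replicate 3, with adjusted p from 0.0686 to 0.116 in edgeR in those 5. At 6 h *Grem1* stood at 70.3, 72.7 and 69.7 CPM in DMSO and at 9.45, 8.29 and 10 CPM in C59. The C59 libraries were at 13.0% of the DMSO mean, and the log2 fold change was -2.94 ± 0.07 (SE; edgeR, adjusted p 6.66e-12). At 12 h the level in C59 had partly returned, to 20.97, 14.2 and 25.9 CPM against 74.6, 79.5 and 76.4 CPM in DMSO (-1.92 ± 0.16; edgeR, adjusted p 5.33e-06), and the 3 C59 libraries differed more among themselves than at 6 h (SD 5.91 against 0.874 CPM). Among the 12 h libraries under 1 FPKM of Y-linked genes, 2 in each treatment, *Grem1* was at 74.6 and 76.4 CPM in DMSO and at 14.2 and 25.9 CPM in C59.

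At 18 h every C59 library had more *Grem1* than every DMSO library, with 78.1, 67.2 and 65.1 CPM against 49.0, 57.7 and 61.8 CPM. The difference of 0.34 ± 0.12 did not pass (edgeR, adjusted p 0.122), and it passed without C59 18 h replicate 3 (0.39; edgeR, adjusted p 0.0401) and with all 30 libraries in 1 fit (0.32; edgeR, adjusted p 0.0405). At 24 h the groups overlapped (43.8, 47.1 and 40.6 against 47.5, 48.8 and 44.4 CPM). *Shh* and *Fgf8*, the partners of *Grem1* in the feedback loop between posterior mesenchyme and ridge, were still lower in C59 at 18 h. *Shh* was at 12.2 CPM in DMSO and 0.179 CPM in C59 at 12 h (-6.09 ± 0.32; edgeR, adjusted p 5.54e-07), and still at 6.29 against 0.614 CPM at 18 h (-3.32 ± 0.25; edgeR, adjusted p 0.000623), the time at which *Grem1* was no longer low. *Fgf8* was at 22.5 against 2.52 CPM at 12 h (-3.17 ± 0.20; edgeR, adjusted p 1.47e-06) and at 14.4 against 8.63 CPM at 18 h (-0.71 ± 0.17; edgeR, adjusted p 0.0432), a call near the threshold that was not repeated without 1 library. At 24 h neither passed: *Shh* stood at 0.898 CPM in DMSO and 0.841 CPM in C59 (-0.06 ± 0.48; edgeR, adjusted p 0.958), so the gap closed as the DMSO level came down to that of C59, and *Fgf8* at 7.23 and 10.1 CPM (0.49 ± 0.19; edgeR, adjusted p 0.141).

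*Nog* moved the other way from *Grem1* at 12 h. At 6 h it did not differ beyond the spread, with 2.95, 3.75 and 2.18 CPM in DMSO and 3.32, 2.84 and 2.66 CPM in C59 (-0.02 ± 0.23; edgeR, adjusted p 0.965). At 12 h it stood at 3.44, 4.06 and 2.09 CPM in DMSO and at 12.4, 9.08 and 8.18 CPM in C59, 309% of the DMSO mean (1.62 ± 0.23; edgeR, adjusted p 0.000254). All 3 C59 libraries at 12 h lay within or above the range of DMSO at 18 h (9.41, 8.03 and 6.92 CPM) and under that of DMSO at 24 h. At 18 h the groups overlapped (0.06 ± 0.18; edgeR, adjusted p 0.863) as the C59 mean went from 9.89 to 8.38 CPM while the DMSO mean went from 3.20 to 8.12 CPM. At 24 h *Nog* was higher in C59 again, with 21.6, 26.3 and 27.6 CPM against 17.8, 15.7 and 20.0 CPM (0.50 ± 0.11; edgeR, adjusted p 0.0207). That call was lost without DMSO 24 h replicate 1 (0.50; edgeR, adjusted p 0.0811), DMSO 24 h replicate 2 (0.41; 0.0916) or C59 24 h replicate 2 (0.47; 0.0593), the last of which stood apart from its group, and with all 30 libraries in 1 fit (0.50; 0.0918). At 1 h the 2 groups did not overlap either (0.938, 1.62 and 0.854 against 0.748, 0.719 and 0.736 CPM), but with as few as 14 counts a library the difference of -0.60 ± 0.35 was not detectable (edgeR, adjusted p 0.421).

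*Sostdc1*, whose product binds BMPs and also acts on WNT co-receptors, was lower at 6, 12 and 18 h. Its 6 h values were 10.2, 9.22 and 8.09 CPM in DMSO and 4.53, 6.43 and 6.04 CPM in C59 (-0.71 ± 0.15; edgeR, adjusted p 0.00536). At 12 h there were 13.6, 16.3 and 13.2 CPM against 9.64, 10.6 and 11.3 CPM (-0.45 ± 0.11; edgeR, adjusted p 0.00827), and at 18 h 18.0, 20.0 and 21.9 CPM against 10.9, 14.7 and 14.3 CPM (-0.57 ± 0.14; edgeR, adjusted p 0.047). The groups did not overlap at any of these 3 times. At 24 h they were again apart, now with C59 on top (24.2, 23.4 and 26.4 against 30.5, 29.7 and 28.4 CPM), a difference of 0.27 ± 0.08 that missed the threshold (edgeR, adjusted p 0.0672).

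*Bambi* encodes a membrane protein built like a type I receptor without the kinase, and it is itself turned on by BMP signaling in many tissues. It stood at 50.7, 45.7 and 47.5 CPM in DMSO at 6 h and at 31.6, 31.9 and 32.0 CPM in C59 (-0.60 ± 0.06; edgeR, adjusted p 1.95e-05). At 12 h it was at 41.8, 44.98 and 42.5 against 24.7, 22.8 and 25.6 CPM (-0.82 ± 0.07; edgeR, adjusted p 5.72e-06), 56.5% of the DMSO mean. At 18 h it remained low, at 36.6, 39.4 and 39.8 against 24.8, 28.1 and 28.2 CPM (-0.50 ± 0.10; edgeR, adjusted p 0.022), and at 24 h the groups overlapped. The 18 h calls of *Bmp2*, *Sostdc1* and *Bambi* were each lost when any 1 library other than C59 18 h replicate 3 was left out, with differences from -0.37 to -0.65, and in limma on the FPKM values.

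**Figure D2:**
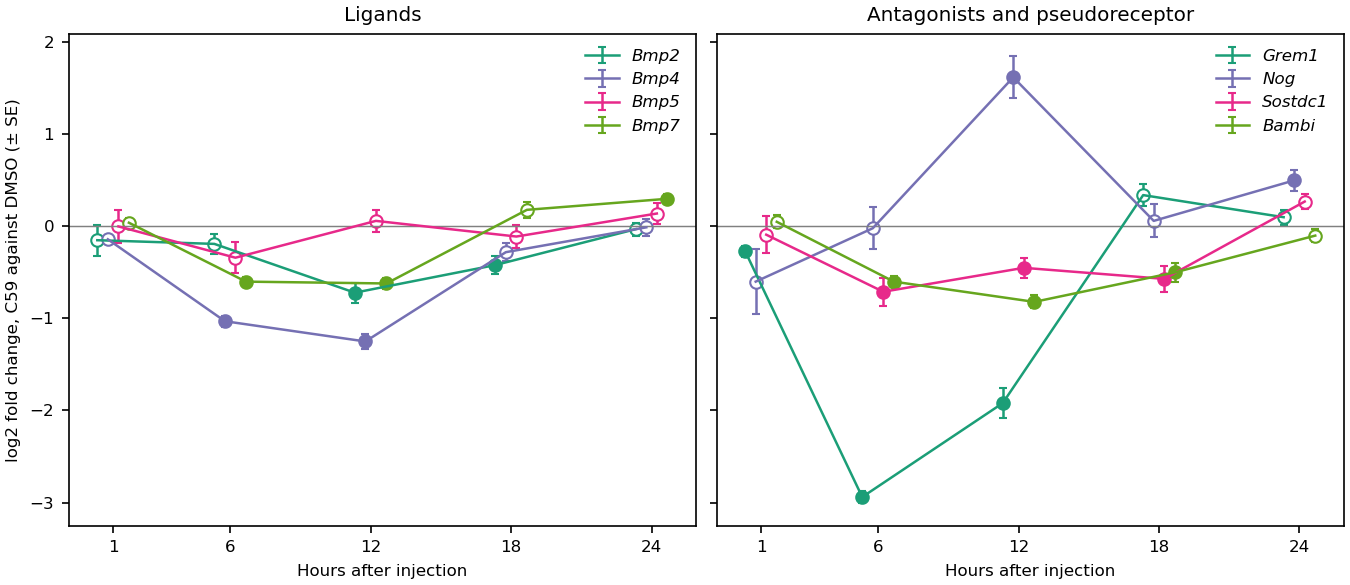
Log2 fold change of C59 against DMSO (vertical axis, ± SE) over hours after injection, shifted sideways for legibility, for the 4 ligands (left) and the 3 antagonists and *Bambi* (right), with filled points for adjusted p below 0.05 (edgeR) and open points for the rest. *Grem1* reaches -2.94 at 6 h and is back above 0 at 18 h, *Nog* peaks at 1.62 at 12 h, and *Bmp5* has open points only.

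Counted over the members, 1 of 8 was lower at 1 h (*Grem1*), where 1.61% of 13076 genes tested were lower and 1.14% higher. At 6 h, 5 of 8 were lower and 0 higher, against 11.4% and 8.20% of 13100 genes, and these 5 calls held without DMSO 6 h replicate 1, which stood apart from its group. At 12 h, 6 of 8 were lower and 1 was higher, against 25.5% and 22.0% of 13324 genes. At 18 h, 3 were lower and 0 higher, against 3.62% and 3.46% of 13413 genes, and at 24 h, 0 were lower and 2 higher, against 3.56% and 2.88% of 13675 genes. With a log2 fold change beyond 1 also required, 2 members remained at 6 h (*Grem1* and *Bmp4*) where 1.17% of genes did, and 3 at 12 h (*Grem1*, *Bmp4* and *Nog*) where 4.95% did. The median log2 fold change of the 8 members was -0.60 at 6 h and -0.67 at 12 h, beside 0.01 and 0.02 over all genes tested. *Bmp4*, *Grem1* and *Nog* had been picked from these same libraries before, and all the members were chosen with results of these data known, so these shares describe the members and do not test them.

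Whether the response itself changed from one collection to the next was tested as an interaction over 12 libraries. From 1 to 6 h the response of 4 members changed, all downward, beside 13.0% of 13397 genes in either direction: *Grem1* by -2.67 ± 0.10 (SE; edgeR, adjusted p 8.55e-13), *Bmp4* by -0.89 ± 0.08, *Bambi* by -0.65 ± 0.09 and *Bmp7* by -0.64 ± 0.07. From 6 to 12 h it changed for 3 members, beside 18.1% of 13565 genes. *Nog* (1.64 ± 0.34; edgeR, adjusted p 0.00345) and *Grem1* (1.02 ± 0.20; edgeR, adjusted p 0.00203) moved up, and *Bmp2* moved down (-0.54 ± 0.15; edgeR, adjusted p 0.0215). From 12 to 18 h it changed for 4, beside 8.49% of 13694 genes. *Grem1* (2.26 ± 0.22; edgeR, adjusted p 5.08e-05), *Bmp4* (0.97 ± 0.14) and *Bmp7* (0.81 ± 0.11) moved up and *Nog* moved down (-1.55 ± 0.32; edgeR, adjusted p 0.0082). From 18 to 24 h it changed for *Sostdc1* (0.82 ± 0.16; edgeR, adjusted p 0.00852) and *Bmp2* (0.38 ± 0.10; edgeR, adjusted p 0.0446), beside 6.96% of 13794 genes. The *Bmp2* value was lost in 10 of the 12 fits without 1 library, with changes of 0.33 to 0.40. For *Bambi* and *Sostdc1* no change of the response passed from 6 to 12 h or from 12 to 18 h.

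Summed over the 4 ligands, transcript levels in DMSO went from 50.3 ± 4.07 FPKM at 1 h to 62.2 ± 2.48 at 18 h and 59.9 ± 1.63 FPKM at 24 h (SD, n = 3). In C59 the sum was 32.6 ± 1.55 against 56.0 ± 2.81 FPKM at 6 h and 33.8 ± 1.23 against 59.5 ± 0.851 FPKM at 12 h, without overlap. At 18 h the groups overlapped (57.7 ± 3.9 against 62.2 ± 2.48 FPKM), and at 24 h C59 lay above DMSO (65.6 ± 2.64 against 59.9 ± 1.63 FPKM). The makeup of the sum shifted with age in DMSO, with *Bmp4* going from 55.2% ± 0.704 at 1 h to 40.0% ± 3.64 at 24 h, *Bmp2* from 2.67% ± 0.299 to 13.5% ± 0.814 and *Bmp5* from 2.97% ± 0.406 to 10% ± 1.48, while *Bmp7* stayed between 34.3% and 39.2%. The share of *Bmp4* in C59 was 48.0% ± 0.398 at 6 h (DMSO 56.4% ± 0.611) and 42.2% ± 5.03 at 12 h (DMSO 53.7% ± 0.846). The share of *Bmp5* at 12 h was 8.59% ± 0.157 in C59 and 4.56% ± 0.393 in DMSO, since its own level did not pass the test while the others were lower. The share of *Bmp7* was larger in C59 than in DMSO at all 5 times without overlap, for example 41.5% ± 2.31 against 34.3% ± 1.04 at 18 h. These sums weigh transcripts, not the secreted proteins, and no test was made on them.

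**Figure D3:**
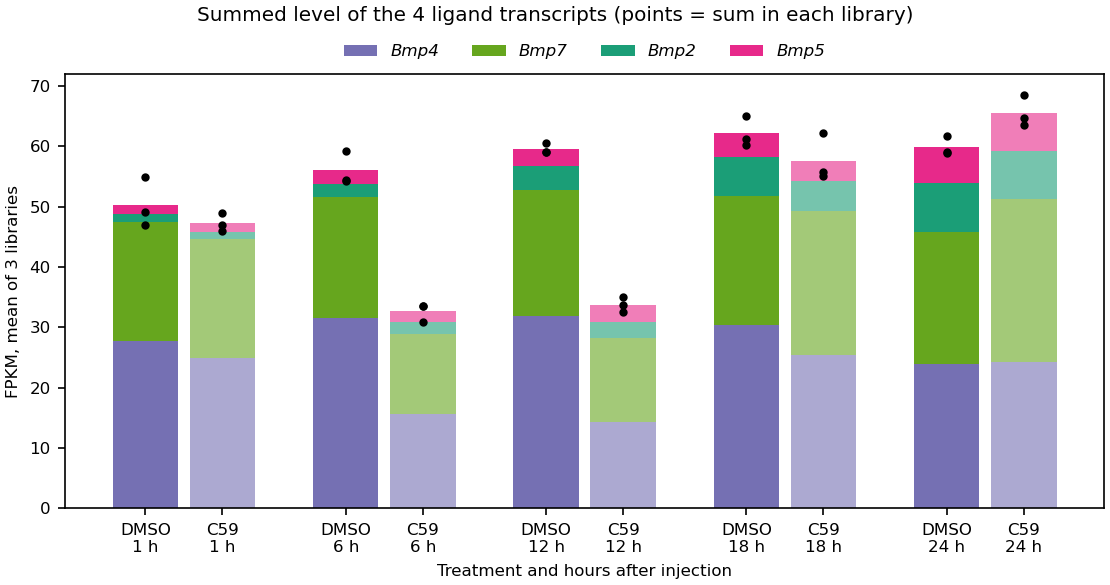
Stacked mean FPKM of the 4 ligand transcripts (vertical axis, from 0) in each treatment and time, C59 in paler shades, with black points for the summed FPKM of each of the 3 libraries. The C59 bars at 6 and 12 h end at 32.6 and 33.8 FPKM, and those of DMSO at 56.0 and 59.5 FPKM.

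Set against *Bmp4*, *Grem1* and *Nog* changed in opposite directions at 6 and 12 h. *Sostdc1*, which stood above *Nog* in DMSO at 12 h (6.17 against 1.21 FPKM), was not part of the ratios below. *Grem1* FPKM divided by *Bmp4* FPKM was 0.409 ± 0.0166 in DMSO at 6 h and 0.107 ± 0.0129 in C59 (SD, n = 3), since *Grem1* lost more of its level than *Bmp4* did. At 12 h it was 0.438 ± 0.0159 against 0.283 ± 0.111. At 18 h the ratio was higher in C59, 0.533 ± 0.110 against 0.346 ± 0.0517, and the libraries did not overlap. At 24 h they did (0.372 ± 0.00564 against 0.346 ± 0.0365). *Nog* FPKM divided by *Bmp4* FPKM was higher in C59 at 6, 12 and 24 h, and stood at 0.0684 ± 0.00456 against 0.0352 ± 0.00821 at 6 h, when *Nog* itself was at 1.07 ± 0.0146 and 1.11 ± 0.234 FPKM, and the groups overlapped at 18 h. At 12 h it was 0.268 ± 0.0248 against 0.0376 ± 0.0124, and DMSO reached 0.284 ± 0.0507 only at 24 h. As a result the number of *Grem1* per *Nog* transcripts, by FPKM, was 12.8 ± 5.15 in DMSO and 1.06 ± 0.434 in C59 at 12 h, and 1.24 ± 0.211 in DMSO at 24 h. *Grem1* and *Nog* together, per summed ligands, were at 0.0842 ± 0.00741 in C59 and 0.25 ± 0.0102 in DMSO at 6 h. At 12 h this quantity overlapped between the treatments (0.230 ± 0.0363 against 0.255 ± 0.01), with *Grem1* at 26.5% and *Nog* at 309% of their DMSO means in CPM. At 18 h (0.291 ± 0.0381 against 0.218 ± 0.0130) and at 24 h (0.286 ± 0.0144 against 0.25 ± 0.0074) this quantity was higher in C59, without overlap. Such whole-bud ratios do not show where in the bud each transcript was made.

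**Figure D4:**
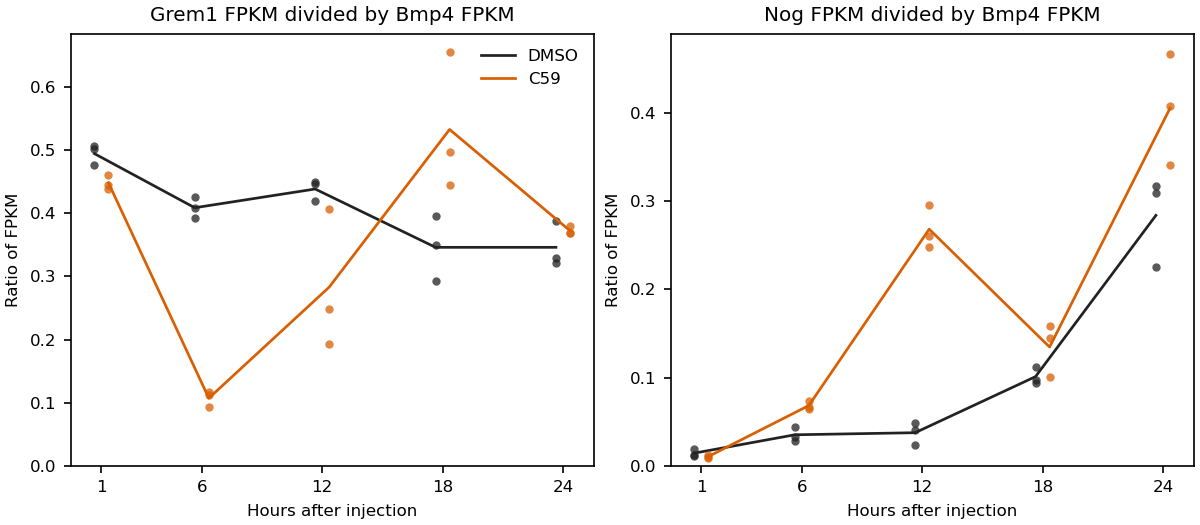
Ratio of *Grem1* to *Bmp4* FPKM (left) and of *Nog* to *Bmp4* FPKM (right) against hours after injection, 1 point per library, lines through the means of 3, DMSO black and C59 orange. The *Grem1* ratio falls to 0.107 in C59 at 6 h, and the *Nog* ratio of C59 at 12 h (0.268) is near that of DMSO at 24 h (0.284).

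Ordered by mean CPM over the 10 groups, *Grem1* ran from C59 at 6 h (9.25) and C59 at 12 h (20.4) to DMSO at 24 h (43.9) and up to DMSO at 12 h (76.8), and its 2 lowest groups were apart from each other and from the rest. For *Bmp4* the 2 lowest groups, C59 at 12 h (36.3) and at 6 h (42.2), overlapped each other and were apart from C59 at 24 h (61.6), the next in the order. *Bmp7* was lowest in the same 2 groups, which overlapped (68.7 and 69.8 CPM), highest in C59 at 24 h (133 CPM), and its 5 DMSO groups and C59 at 1 and 18 h formed an unbroken run of overlapping neighbours. The lowest groups of *Bambi* were C59 at 12, 18 and 6 h (24.4, 27.0 and 31.9 CPM). The order of *Nog* followed age except for C59 at 12 h, which took the place next to the 2 groups at 18 h and overlapped its neighbour there. *Bmp5* followed age throughout, with neighbours of the same hour overlapping at each time.

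Likeness was measured as Pearson's r over the 10 group means of log2 CPM, among 10585 genes with a mean of at least 5 CPM. The means share libraries, age and treatment, so r is a description. *Grem1* was most like *Twist1* (0.960), *Axin2* (0.953) and *Znrf3* (0.949), and *Bambi* most like *Msx1* (0.985), *Adss* (0.985) and *Naa50* (0.972). *Bmp4* was most like *Tcf12* (0.962), *Qtrt2* (0.952) and *Slc25a33* (0.945), and *Bmp7* most like *Pdgfc* (0.989), *Ergic1* (0.965) and *Miga2* (0.962). The closest to *Nog* were *Pamr1* (0.994), *Fkbp7* (0.993) and *Ahr* (0.991), and the closest to *Bmp5* were *Pfn2* (0.993), *Nexn* (0.990) and *Bcl2* (0.990). *Bmp2* was closest to *Dclk1* (0.988), *Trib2* (0.981) and the member *Sostdc1* (0.979), and *Sostdc1* to *Dlx5* (0.987), *Fst* (0.986) and *Rprm* (0.983). Within the 8, *Bmp2*, *Bmp5*, *Nog* and *Sostdc1* had r from 0.89 to 0.98 with each other, and *Grem1* had 0.88 with *Bmp4* and 0.81 with *Bmp7*.

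The rest of the pathway was read from 52 further genes, all in the count table, of which 45 to 52 passed the filter on low counts at each time. At 6 h 6 of 47 were higher and 9 lower, at 12 h 16 of 51 higher and 8 lower, at 18 h 3 higher and 5 lower, at 24 h 7 higher and 4 lower, and at 1 h 1 was lower and 0 higher. Over all genes tested, 8.20% were higher and 11.4% lower at 6 h, 22.0% and 25.5% at 12 h, 3.46% and 3.62% at 18 h, 2.88% and 3.56% at 24 h, and 1.14% and 1.61% at 1 h. The median log2 fold change of the pathway genes was 0.06 at 6 h and 0.10 at 12 h, beside 0.01 and 0.02 over all genes. Of the other genes listed as ligands, 3 of 9 were higher at 6 h and 4 of 11 at 12 h, and 0 were lower. This list went beyond BMP ligands, and *Bmp1* in it encodes a protease. Those higher at 12 h were *Bmp3*, *Gdf5*, *Gdf11* and *Inhba*. *Inhba*, which encodes the activin A subunit, was higher at 12 h (1.73; edgeR, adjusted p 1.9e-05) and lower at 18 h (-1.05; edgeR, adjusted p 0.0197). *Gdf5*, a ligand gene of forming joints, was higher at 6 h (0.69; edgeR, adjusted p 0.0135) and at 12 h (1.26; edgeR, adjusted p 0.0203). It was also higher at 18 h (0.80; edgeR, adjusted p 0.0163) and at 24 h (0.98; edgeR, adjusted p 4.65e-05). *Gdf7* had the lowest value of the ligands at 12 h (-0.70; edgeR, adjusted p 0.0541).

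Among the other antagonists and extracellular modulators, 2 of 13 were higher and 5 lower at 6 h. *Sost* (-1.58; edgeR, adjusted p 2.1e-06), the relative of *Sostdc1*, *Fst* (-1.18; edgeR, adjusted p 0.00191), which encodes the activin and BMP binding protein follistatin, and *Nbl1* (-1.0; edgeR, adjusted p 1.01e-05), which encodes another relative of gremlin, fell at 6 h beside *Grem1*. At 12 h 5 of 15 were higher and 3 lower, with *Bmper* (1.40; edgeR, adjusted p 2.48e-05) and *Chrdl2* (1.11; edgeR, adjusted p 0.0241) on top and *Nbl1* at the bottom (-0.91; edgeR, adjusted p 0.00037). Of 11 receptors and co-receptors, 6 were higher and 1 lower at 12 h, where 22.0% of all genes were higher and 25.5% lower, led by *Bmpr1b* (1.23; edgeR, adjusted p 1.62e-06), the type I receptor gene of condensing cartilage, while *Acvr2b* had the lowest value (-0.17; edgeR, adjusted p 0.0446). At 6 h 1 of the 11 was higher and 0 lower. Of the 8 *Smad* and *Smurf* genes, which carry or damp the signal inside the cell, only *Smad1* passed, at 6 h (-0.23; edgeR, adjusted p 0.0265). At 12 h their values ran from -0.14 for *Smad1* to 0.21 for *Smad9*.

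Of the 6 response genes, 3 were lower at 6 h, 4 were lower and 1 higher at 12 h, and 4 were lower at 18 h. *Msx1* fell most, by 2.04 at 6 h (edgeR, adjusted p 6.66e-12), 3.01 at 12 h (edgeR, adjusted p 1.2e-07) and 1.89 at 18 h (edgeR, adjusted p 0.000158) on the log2 scale, and *Id4* was the one higher at 12 h (0.68; edgeR, adjusted p 0.00341). *Msx1*, *Id1*, *Id2* and *Msx2*, the last 3 named here after their values were seen, passed as lower at 18 h, when the summed ligands overlapped between the treatments. Within that sum, *Bmp4* (81.3% of the DMSO mean in CPM) and *Bmp2* (73.9%) lay below DMSO and *Bmp7* (112%) above it, each without overlap. Adjusted p at 18 h was 0.0441 for *Id1*, 0.00804 for *Id2* and 0.0143 for *Msx2* (edgeR). Whether these calls hold without 1 library was not tested. At 24 h *Msx1* alone remained lower (-0.22; edgeR, adjusted p 0.0382).

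**Figure D5:**
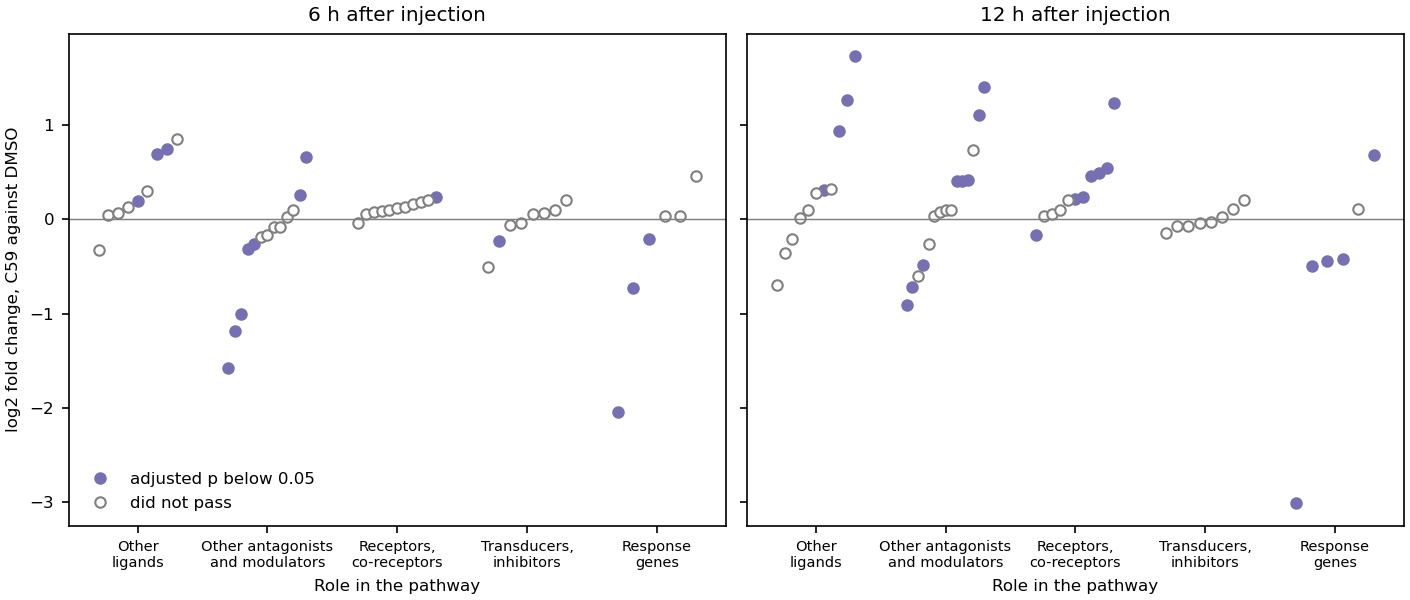
Log2 fold change of C59 against DMSO (vertical axis) for the further pathway genes by role (horizontal axis), 6 h on the left and 12 h on the right, ordered by value within a role, filled where adjusted p was below 0.05 (edgeR). Receptors lie mostly above 0 at 12 h (6 of 11 higher), *Smad* and *Smurf* genes run from -0.51 (*Smad9* at 6 h) to 0.21 (*Smad9* at 12 h), and *Msx1* is the lowest point at both times (-2.04 and -3.01).

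Markers of the cell types in the bud moved with the treatment as well. Beside the marker counts stand the shares over all genes, 8.20% higher and 11.4% lower at 6 h and 22.0% higher and 25.5% lower at 12 h. They were 3.46% and 3.62% at 18 h, 2.88% and 3.56% at 24 h, and 1.14% and 1.61% at 1 h. Of 7 limb mesenchyme markers, 5 were lower at 6 h and 5 lower and 1 higher at 12 h, and their summed level at 12 h was 1830 to 1960 CPM in DMSO and 1250 to 1320 CPM in C59. *Msx1* and *Twist1* of that list are themselves named above, the first as a response gene and the second as most like *Grem1*. Of 11 surface ectoderm and ridge markers, 7 were higher and 2 lower at 12 h, with sums of 341 to 375 CPM in DMSO and 425 to 571 CPM in C59. The 2 lower were *Fgf8* (-3.17; edgeR, adjusted p 1.47e-06) and *Sp8* (-0.70; edgeR, adjusted p 0.00169), so the higher sum did not hold for each marker. At 6 h 1 of the 11 was higher and 4 were lower, *Fgf8* and *Sp8* among them. All 5 macrophage markers were higher at 12 h (21.4 to 23.4 against 37.4 to 40.1 CPM). Endothelial sums at 12 h were 261 to 285 against 328 to 362 CPM, those of muscle progenitor markers 71.7 to 98.1 against 106 to 137 CPM and those of the 3 neural crest markers measured 36.5 to 50.7 against 83.5 to 111 CPM. Erythroid sums overlapped at 12 h (5220 to 7560 against 6570 to 9400 CPM). The higher muscle progenitor sums did not hold for each marker. Of these 5 markers, 2 were higher at 12 h (*Myog* and *Myod1*) and 2 lower (*Pax3* and *Myf5*). Their log2 fold changes at 12 h ran from -2.04 for *Pax3* to 1.56 for *Myog*. At 6 h *Myod1* and *Myog* were higher and *Pax3* was lower. At 6 h the sums were 352 to 387 against 352 to 356 CPM for ectoderm and 310 to 327 against 317 to 324 CPM for endothelium, and both overlapped, while those of muscle progenitor (59.3 to 63.3 against 85.4 to 98.6 CPM) and neural crest markers (29.5 to 35.3 against 38.6 to 50.8 CPM) were higher and those of limb mesenchyme markers lower in C59 (1950 to 1970 against 1300 to 1420 CPM). At 1 h, beside the *Grem1* call, 2 of 5 erythroid markers were higher (median log2 fold change 0.50) and 1 mesenchyme marker was lower, with erythroid sums of 4480 to 6040 CPM in DMSO and 5950 to 8400 CPM in C59. At 18 h 5 of 11 ectoderm, 3 of 5 macrophage and 1 of 3 neural crest markers were higher. Lower were 2 of 7 mesenchyme, 2 of 5 muscle progenitor and 1 of 11 ectoderm markers. At 24 h, beside the *Bmp7* and *Nog* calls, 3 of 11 ectoderm, 2 of 5 macrophage and 1 of 3 neural crest markers were higher. Lower were 2 of 5 muscle progenitor, 1 of 7 mesenchyme, 1 of 5 endothelial and 1 of 5 erythroid markers. Ectoderm sums were 334 to 356 against 407 to 467 CPM at 18 h and 374 to 390 against 444 to 470 CPM at 24 h, and macrophage sums 31.7 to 35.7 against 47.4 to 52.4 CPM and 37.6 to 40.4 against 48.4 to 51.9 CPM. None of these markers was at 0 counts in any library. The part of the makeup of the bud in the changes of *Bmp4*, *Bmp7*, *Grem1*, *Nog* and the other members was not tested.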

How the data were processed

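Forelimb bud RNA was sequenced from 30 libraries. Reads were trimmed by the authors with cutadapt 1.16 and mapped with STAR 2.7.0e to mm10, and the deposited counts per gene are unnormalized. The deposited FPKM values were made by the authors with cufflinks 2.2.1 (unstranded, with multi-read and bias correction, without effective length correction). Groups came from the sample titles, and 0 columns belonged to samples of another series.

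Counts of protein-coding autosomal genes were tested with edgeR 4.0.16 (R 4.3.3; two-sided quasi-likelihood F test, TMM factors; low counts were removed by filterByExpr at min.count 10 and min.total.count 15) at each time, for the change of the C59 effect between neighbouring times, and for DMSO 24 h against DMSO 1 h. A gene passed at a Benjamini-Hochberg adjusted p below 0.05 over all genes tested. SE is the log2 fold change divided by the root of F. CPM used TMM factors over all 30 libraries. Totals per library, from 18188636 to 38974885 counts, set the counting error, and member counts ran from 14 to 4043. The script was tested on simulated data.

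Alternatives were DESeq2 1.42.0, its size factors in edgeR, no filter on low counts, all autosomal genes, limma 3.58.1 on log2(FPKM + 1) and log2(FPKM + 0.1), all 30 libraries in 1 fit, a replicate block, an added log2 fold threshold of 1, and leaving out each library in turn. Named were all 8 members, pathway genes that passed with a log2 fold change beyond 1 at any time, the extremes of each role at 12 h, *Axin2*, *Shh*, *Fgf8*, and for each member the 3 genes most like it. Some further pathway and marker genes were named after their values were seen. The members, the lists of pathway genes and of markers, and the tests were chosen with earlier results of these data known.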

Additional observations from a re-analysis of the deposited data

Results flagged for a closer look

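For 13 member values the interaction test found that the difference between C59 and DMSO was not the same at neighbouring times (edgeR quasi-likelihood test, adjusted p below 0.05). From 1 to 6 h the log2 fold change moved by -2.67 for *Grem1*, -0.89 for *Bmp4*, -0.65 for *Bambi* and -0.64 for *Bmp7*. From 6 to 12 h it moved by 1.64 for *Nog*, 1.02 for *Grem1* and -0.54 for *Bmp2*, the last of which was lost without any of 4 of the 12 libraries. From 12 to 18 h it moved by 2.26 for *Grem1*, 0.97 for *Bmp4*, 0.81 for *Bmp7* and -1.55 for *Nog*. From 18 to 24 h it moved by 0.82 for *Sostdc1* and 0.38 for *Bmp2*. Values that involve 6 h compare groups in which the treatment and the sex of the embryos cannot be told apart.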

How the results depend on the processing

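Of 600 repeats of the member values of C59 against DMSO, 527 kept their direction and side of the threshold, 52 lost the call, 5 gained one and 16 changed sign. Of 544 repeats of the changes between times these numbers were 512, 17, 5 and 10, and all 88 repeats of DMSO 24 h against 1 h kept both. No call at 6 or 12 h was lost by leaving out a library, with 5 members at 6 h and 7 at 12 h in each such fit. No cause of a change below was tested.

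Genes that passed at 1 h (360) became 580 without a filter, 182 and 194 in limma with a pseudocount of 1 and 0.1, 178 with all 30 libraries in 1 fit, 37 with the fold threshold and 184 to 677 without 1 library. At 6 h 2565 became 1487 and 1463 in limma, 153 with the fold threshold and 1562 to 3125 without 1 library, and at 12 h 6330 became 660 with the fold threshold. At 18 h 949 became 1488 in DESeq2, 3855 with all 30 libraries, 478 with the replicate block, 173 with the fold threshold and 190 to 2199 without 1 library, the highest without C59 18 h replicate 3. At 24 h 881 became 484 and 429 in limma, 112 with the fold threshold and 265 to 996 without 1 library. The change from 1 to 6 h (1736) became 793 with all 30 libraries, that from 12 to 18 h (1162) 2491, with 656 to 2105 without 1 library, and that from 18 to 24 h (960) 2307, with 1517 in DESeq2 and 470 to 2057 without 1 library. Genes higher and lower in limma with a pseudocount of 1 were 51 and 131 at 1 h (149 and 211 in edgeR), 3520 and 2516 at 12 h (2934 and 3396) and 304 and 180 at 24 h (394 and 487).

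Members that passed at 1 h (1) became 0 in limma with either pseudocount, with all 30 libraries and with the fold threshold, and 0 to 1 without 1 library. With the fold threshold 5 became 2 at 6 h, 7 became 3 at 12 h, and 0 were left at 18 and 24 h. At 18 h 3 became 0 in limma with either pseudocount and with the replicate block, 6 with all 30 libraries and 0 to 5 without 1 library. At 24 h 2 became 1 with all 30 libraries and 0 to 2 without 1 library, and the 2 changes from 18 to 24 h became 1 without a filter or with the replicate block and 1 to 3 without 1 library. *Nog* at 6 h was 0.00 with the block, and *Bmp4* at 24 h 0.02 in limma. Without 1 library the sign changed for members that had not passed: at 1 h *Bmp2* (-0.27 to 0.01), *Bmp5* (-0.13 to 0.14), *Bmp7* (-0.01 to 0.08), *Bambi* (-0.01 to 0.09) and *Sostdc1* (-0.29 to 0.08), *Nog* at 6 h (-0.18 to 0.17) and 18 h (-0.05 to 0.21), *Bmp4* at 24 h (-0.09 to 0.09), and the changes of *Bmp2* from 1 to 6 h (-0.19 to 0.08), *Bmp7* from 6 to 12 h (-0.08 to 0.02) and *Sostdc1* from 12 to 18 h (-0.20 to 0.02).

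Replicate numbers did not pair the samples: correlations of same-numbered libraries ran from -0.13 to 0.10, and 5 of 15 C59 libraries correlated best with their own number. Counts were as low as 14 a library for *Nog*, 67 for *Bmp5* and 71 for *Sostdc1*, which limits what could be detected for these genes.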
